A study of Mus musculus with 15 samples.

Results

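Libraries of WT0, a mouse T cell leukemia with intact Bcat1, from mice given ERG-245, an inhibitor of the enzyme BCAT1, were compared across all genes with libraries from mice given vehicle. The comparison used 6 of the 15 RNA-seq libraries of the series, chosen by their labels: 3 of WT0 with ERG-245 and 3 of WT0 with PBS, the vehicle. All leukemias of the series arose from bone marrow progenitors (GFP+, lineage-, cKit+, Sca1+) given a retroviral ΔE-NOTCH1, a truncated form that is active without ligand, and were grown in lethally irradiated C57BL/6J hosts. Both WT0 groups carry wild-type Bcat1. Leukemia-bearing mice were injected intraperitoneally with ERG-245 at 30 mg per kg, given 3 times at intervals of 8 h, or with PBS, and RNA was taken from leukemic T cells of the spleen. The other 9 libraries come from WT6, which is also Bcat1 wild type, and from KO7 and KO3, labelled Bcat1 knock-out, with 3 libraries each and all labelled PBS, and served to share the estimate of the spread and as a reference for levels. WT0 is 1 numbered leukemia, the mice still hold host spleen cells, and whether a group's 3 libraries stem from different mice is not stated in the labels. The series' design text speaks of 5 different samples for the 15 libraries, so the 3 libraries of a group may be preparations of 1 sample. The alignment names of the 3 PBS libraries contain DMSO where their labels say PBS.

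BCAT1 is the cytosolic branched-chain aminotransferase. It takes the amino group from leucine, isoleucine or valine and passes it to 2-oxoglutarate. The products are glutamate and branched-chain keto acids, which mitochondria oxidise further. NOTCH1 is the main oncogene of T cell acute lymphoblastic leukemia and drives growth, amino acid use and the early T cell program. Leucine also feeds the mTORC1 growth sensor, and shortage of amino acids is read by the transcription factor ATF4.

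Total counts were 17441292 to 22936005 per library. Across genes, which are not independent replicates, Pearson's r of log2 levels was 0.9936 to 0.9946 for libraries of the same group and 0.9629 to 0.9649 for ERG-245 with PBS. The coefficient of variation beyond counting error was 1.92% among PBS and 1.91% among ERG-245 libraries, so p-values below measure a narrow spread between libraries that may be technical. T cell genes were high in all 6 libraries. Cd3e, a chain of the T cell receptor complex, stood at 207 to 538 CPM (counts scaled to the library's size) and Notch1 at 807 to 1342 CPM. In bulk RNA, fewer cells of a type and less RNA per cell cannot be told apart.

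The receptor genes set the groups apart first. A T cell receptor beta chain holds 1 V and 1 J segment of the T cell receptor beta locus on chromosome 6 (TRBV and TRBJ). Its transcript is spliced to the constant gene Trbc1 or Trbc2, so the segments used can help to mark a clone. Trbv17 held 39.5%, 38.9% and 40.6% of TRBV counts in the PBS libraries and 0.893%, 1.135% and 0.761% in those with ERG-245. Trbv16 held 5.01%, 4.99% and 4.75% with PBS and 49.45%, 49.1% and 51.3% with ERG-245. Trbv13-2 went from 10.3 ± 0.181% (SD, n = 3) to 38.5 ± 0.689%. In the PBS libraries Trbv3 (19.1%), Trbv19 (11.5%), Trbv13-2 (10.3%) and Trbv4 (5.63%) followed Trbv17. Trbv3, Trbv19 and Trbv4 were each under 1% with ERG-245. The groups do not overlap for any of these segments, and several segments share each group. Totals were 9738 to 16909 TRBV counts per library. Trbv17 and Trbv16 can be told apart in counting, because 100% of their 50-base windows occur in no other gene of the GENCODE vM21 transcripts. The other TRBV segments, Trbv13-2 among them, were not checked in this way. The last 75 bases of the leading segments in the reference genome (GRCm38, plus strand) are shown. They stand for the V segments alone and not for a whole receptor. Capitals mark the codon of the conserved cysteine at which the clone-specific joint begins. Trbv17 ends at chr6:41163482-41163556, Trbv16 at chr6:41152156-41152230 and Trbv13-2 at chr6:41121758-41121832.
Trbv17: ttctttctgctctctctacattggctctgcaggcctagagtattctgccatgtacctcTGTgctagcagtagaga
Trbv16: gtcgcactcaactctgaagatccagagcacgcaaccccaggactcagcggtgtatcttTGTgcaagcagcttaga
Trbv13-2: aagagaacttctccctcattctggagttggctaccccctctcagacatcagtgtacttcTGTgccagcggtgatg

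**Figure D1:**
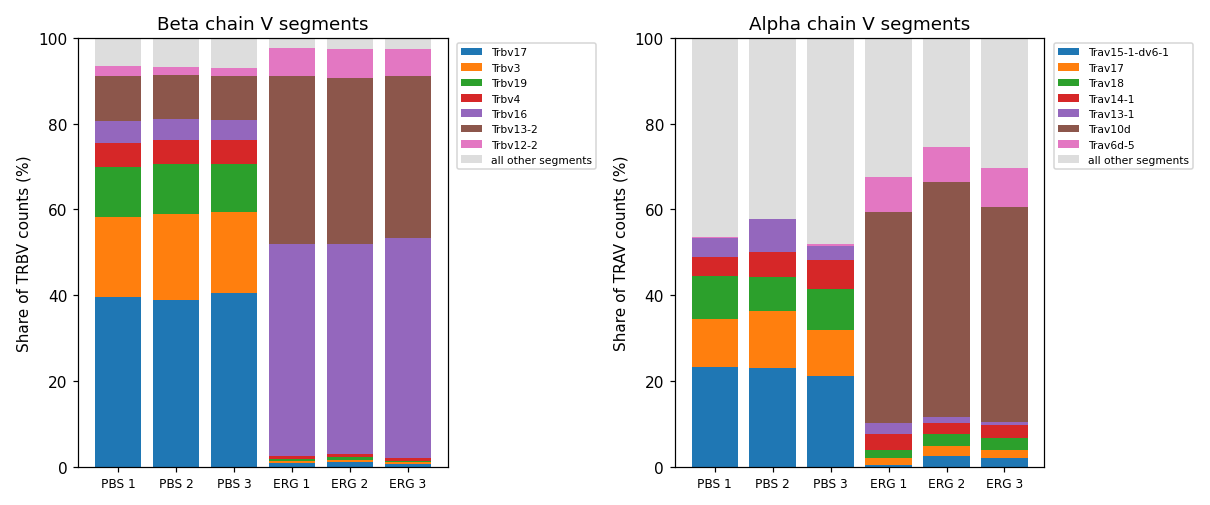
Share of TRBV counts (left) and TRAV counts (right) held by the leading V segments in each WT0 library, stacked to 100%. Trbv17 leads in the 3 PBS libraries and Trbv16 with Trbv13-2 in the 3 ERG-245 libraries, and Trav10d is seen with ERG-245 alone.

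Other receptor genes differed as well. Trbc1 stood at 160, 166 and 171 CPM with PBS and at 840, 835.5 and 879 CPM with ERG-245 (log2 2.36, SE 0.025, adjusted p = 3.53e-104). Trbc2 fell from 924 to 680 CPM (log2 -0.44). Trbc1 thus made up 15.2 ± 0.487% of the counts of both constant genes with PBS and 55.6 ± 0.825% with ERG-245 (SD, n = 3). These shares are uncertain in size, since only 59.5% of 50-base windows of Trbc1 are not shared with Trbc2. Joining segments upstream of Trbc1 (Trbj1) and of Trbc2 (Trbj2) moved both ways. Trbj1-6 went from 6.38% to 19.25% of TRBJ counts and Trbj1-1 from 6.60% to 4.72%, while Trbj2-5 went from 13.3% to 1.94%, Trbj2-7 from 23.65% to 9.82%, Trbj2-3 from 5.22% to 13.0% and Trbj2-1 from 11.98% to 14.9%. Of the alpha chain, Trav10d had 0 counts in all PBS libraries and 776 counts with ERG-245, at least 280-fold higher against a floor of 3 counts over the PBS group. It made up 49.3%, 54.8% and 50.1% of 471 to 524 TRAV counts per ERG-245 library. Trav10d shares most of its sequence with Trav10 and Trav10n (16.2% of windows are its own), so which of these near copies is expressed is uncertain. Trav15-1-dv6-1 led with PBS (22.5 ± 1.16%) and held 1.62 ± 1.07% with ERG-245, from 326 to 455 TRAV counts per PBS library. Constant genes of the gamma and delta chains, chosen after their values were seen, moved too. Trgc2 fell from 144 to 36.1 CPM (log2 -1.997) and Trdc from 70.6 to 26.7 CPM (log2 -1.40), while Trgc1 rose from 31.1 to 51.5 CPM (log2 0.73) and the alpha constant gene Trac rose from 60.9 to 108.6 CPM (log2 0.835). The receptor segments used, and so perhaps the clones or their mixture, differ between the same 2 sets of libraries as the treatment. The parts of clone and treatment in every difference below cannot be told apart.

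Over all genes, 15948 were tested. With ERG-245, 5268 were higher (33.0%) and 5233 lower (32.8%) at an adjusted p under 0.05 in edgeR's quasi-likelihood test, 65.8% in all, and 906 (5.68%) were higher and 965 (6.05%) lower by at least 2-fold. Of the called genes, 6895 changed by under 1.5-fold. At least 16-fold changes were seen for 48 higher and 60 lower genes. The median log2 fold change was -0.0005, and the medians of single chromosomes lay between -0.04 and 0.06. Libraries of the 2 groups did not overlap for 67.9% of genes. The 3 ERG-245 libraries lay above all 12 other libraries for 11.1% of genes and below them for 9.43%. The same count for the other groups, libraries outside all others on either side, was 22.1% for WT0 with PBS, 21.4% for WT6, 21.8% for KO7 and 14.1% for KO3, beside 20.5% for ERG-245. Against WT0 with PBS, genes at least 2-fold higher and lower numbered 1457 and 1552 in WT6. They numbered 1376 and 1208 in KO7 and 712 and 1244 in KO3. All of these leukemias were without the inhibitor.

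Changes ran with the exon length of the gene. Among 446 protein-coding genes of at least 5 CPM with up to 1000 exon bases, the median log2 fold change was 0.30 and 81.2% were higher. It was 0.07 for exon lengths of 2000 to 3000 bases and -0.13 for 6000 to 10000 bases. Among 808 genes over 10000 bases it was -0.23, and 64.7% were lower. Against the mean of the 5 groups, the PBS libraries deviated by a median of -0.143 for the shortest genes and 0.197 for the longest, while ERG-245 deviated by 0.164 and -0.044. KO3 deviated by 0.107 and -0.055, WT6 by -0.053 and 0.018, and KO7 by -0.046 and -0.113, so that KO3 lay near ERG-245 for short genes. Each PBS library showed it (-0.164, -0.114 and -0.165 for the shortest genes). Lists of short or long genes are therefore given below beside other genes of the same length, and with a fit in which the length trend was removed, added after the trend was seen.

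**Figure D2:**
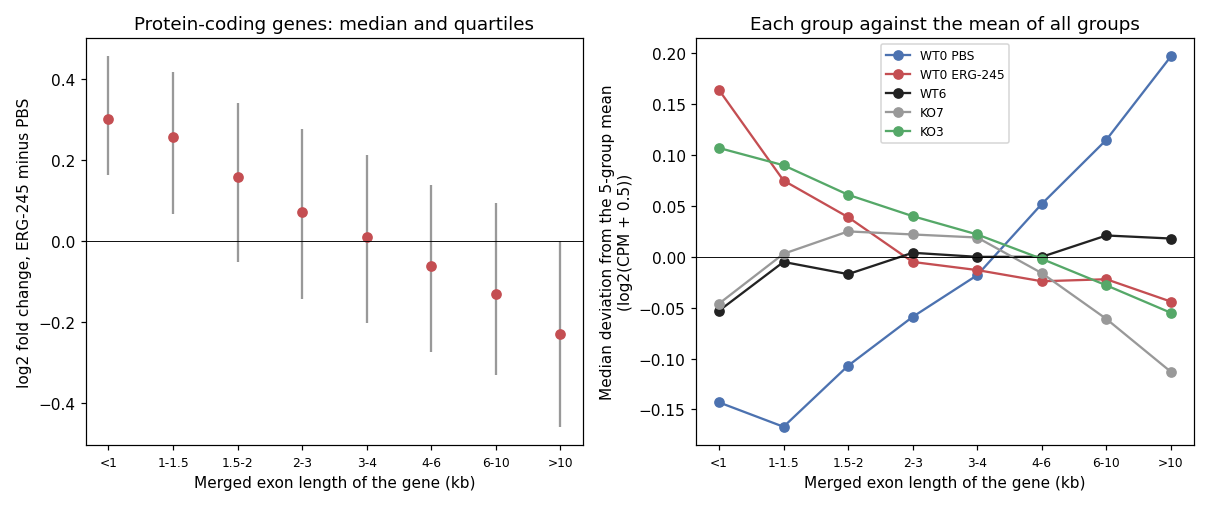
Left, median log2 fold change of ERG-245 against PBS (points) and quartiles (lines) of protein-coding genes of at least 5 CPM, by exon length in kb; the medians fall from 0.30 to -0.23. Right, median deviation of each group from the mean of all 5 groups on the log2(CPM + 0.5) scale, where the WT0 PBS libraries run from -0.143 to 0.197.

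The target itself was lower and its mitochondrial counterpart higher. Bcat1 (gene ID 12035, chromosome 6, 144993835 to 145076157 of GRCm38) stood at 18.4, 16.7 and 18.3 CPM with PBS and at 14.0, 13.5 and 12.5 CPM with ERG-245 (log2 -0.42, SE 0.08, adjusted p = 2.4e-06). The groups do not overlap. The other leukemias stood at 34.8, 35.3 and 35.6 CPM (WT6), 2.11, 2.67 and 1.48 CPM (KO7), and 6.85, 6.17 and 7.85 CPM (KO3), so Bcat1 counts were present in the libraries labelled knock-out. Bcat2, the mitochondrial aminotransferase, stood at 54.1, 55.7 and 53.2 CPM with PBS and at 74.85, 78.1 and 78.3 CPM with ERG-245 (log2 0.50). Of the 9 genes at the entry of the pathway, 5 rose and 2 fell (median log2 0.18, against 0.05 for other genes of that length, of which 41.7% were higher), and none by 2-fold. With the length trend removed 4 rose and 1 fell, with a median of 0.076. Bckdk, the kinase that switches off the keto acid dehydrogenase, rose by log2 0.21, and Slc25a44, the mitochondrial carrier of branched-chain amino acids, by 0.23. Ppm1k, the phosphatase that switches the dehydrogenase on, fell by 0.16 on the log2 scale (adjusted p = 0.0306), a call that was lost without PBS library 3 (-0.123), ERG-245 library 2 (-0.163) or ERG-245 library 3 (-0.13). Its E1 subunit gene Bckdhb (5.12 and 5.80 CPM) and its E2 gene Dbt (28.6 and 29.04 CPM) did not pass the test. Of the 22 genes of distal breakdown, 11 rose and 4 fell (median log2 0.18, against 0.05 for other genes of that length, of which 41.4% were higher). Pccb, a subunit of propionyl-CoA carboxylase, rose by log2 0.51 and Acadm, a medium-chain acyl-CoA dehydrogenase, by 0.47.

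Genes of the ATF4 response to amino acid shortage were more often higher than lower. Of 28 genes, 16 rose and 6 fell (median log2 0.43, against 0.06 for other genes of that length). With the length trend removed 15 rose and 9 fell, with a median of 0.4. In a fit of the 6 WT0 libraries alone 26 were tested, 15 rose and 6 fell, with a median of 0.3. In the main fit 7 rose at least 2-fold. Of these 7, Chac1, Trib3, Pycr1, Vldlr and Cth, named after their values were seen, stayed under 4 CPM in both groups. Asns, which makes asparagine, stood at 48.5, 46.4 and 47.6 CPM with PBS and at 82.3, 84.6 and 82.4 CPM with ERG-245 (log2 0.81, SE 0.041, adjusted p = 1.9e-36). Eif4ebp1, which restrains translation when mTORC1 is off, stood at 16.3, 17.3 and 17.6 CPM and at 42.2, 44.2 and 44.65 CPM (log2 1.36). Both genes were higher with ERG-245 than in any of the 12 other libraries. Ddit4, an inhibitor of mTORC1, rose by log2 0.89, from 139.5 to 259.6 CPM, yet stood higher still in WT6 (363 CPM) and KO7 (494 CPM). Cebpg, a partner of ATF4, fell from 80.3 to 46.35 CPM (log2 -0.79). Atf4 itself stood at log2 -0.01 and did not pass. Of 20 cytosolic aminoacyl-tRNA synthetases, enzymes that load amino acids onto tRNA, 14 rose and 2 fell (median log2 0.18). Other genes of that length had a median of 0.02, and 38.5% of them were higher. Aars (159 to 221 CPM, log2 0.47) and Hars (log2 0.42) led the synthetases. Isoleucyl- and valyl-tRNA synthetase, Iars (log2 -0.07) and Vars (-0.06), were the 2 that fell. The call of Iars was lost without PBS library 1 (-0.066) or 2 (-0.071) or ERG-245 library 1 (-0.06) or 3 (-0.068), that of Vars without PBS library 1 (-0.05) or ERG-245 library 1 (-0.053), and Vars had the opposite sign once the length trend was removed (0.096).

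Promoters of this list held the amino acid response element more often than those of all genes, though most did not hold it. TGATGNAA, searched on both strands in the 250 bases before the start site (RefSeq, GRCm38.p6), was found for 7 of 25 ATF4 list genes with a promoter in the table (28.0%) and for 3.91% of all 27025 genes. Of these 7 genes 6 rose and 0 fell, beside 16 and 6 of all 28 genes of the list. Most of the 7 were low in both groups. With PBS and ERG-245, Nupr1 stood at 2.17 and 3.80 CPM, Pycr1 at 1.49 and 3.32 and Vldlr at 0.794 and 1.69. Atf3 stood at 0.835 and 1.21 CPM and Chac1 at 0.322 and 0.889. The 2 with the largest rise at a mean of at least 5 CPM are printed with up to 40 bases on either side of the matches, which stand in capitals. They lie on the minus strand at chr3:50443614-50443719 (Slc7a11) and chr6:7693210-7693272 (Asns).
Slc7a11: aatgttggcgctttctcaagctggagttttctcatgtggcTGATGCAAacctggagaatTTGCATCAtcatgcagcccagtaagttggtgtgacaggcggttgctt
Asns: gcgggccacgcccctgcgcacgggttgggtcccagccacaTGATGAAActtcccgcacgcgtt
Slc7a11, the cystine importer that also belongs to the NRF2 list, rose by log2 1.18.

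Amino acid transporters did not move as a group. Of 23, 7 rose and 9 fell (median log2 -0.01). The members with the smallest p included Slc38a2, which went from 193 to 134 CPM (log2 -0.52), Slc38a1 from 266 to 198 CPM (log2 -0.43) and Slc1a5 from 355 to 275 CPM (log2 -0.37). Of the other SLC38 genes on the list, looked at after their values were seen, Slc38a10 rose (log2 0.12) and Slc38a9 did not pass (-0.01). Of 40 leucine sensing and mTORC1 genes, 17 rose and 13 fell (median log2 0.01). Rragd, a Rag GTPase that tethers mTORC1 to lysosomes, stood at 45.45, 44.2 and 49.7 CPM with PBS and at 22.2, 22.7 and 21.8 CPM with ERG-245 (log2 -1.06). Deptor, a partner of mTOR, fell from 86.5 to 46.1 CPM (log2 -0.91).

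**Figure D3:**
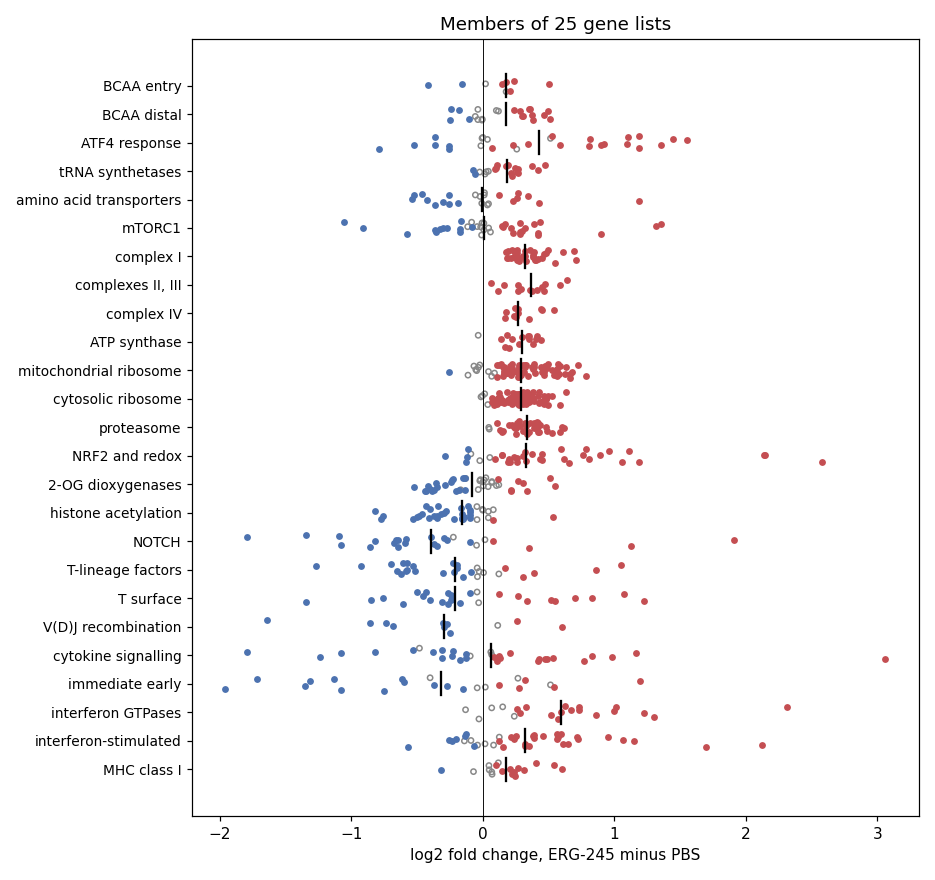
Log2 fold change of ERG-245 against PBS for the tested members of 25 gene lists, 1 point per gene: red passed the test as higher, blue as lower, open did not pass, and black bars are list medians. All members of complexes I to IV lie above 0, most NOTCH and V(D)J genes below 0, and Cish stands alone at 3.06 among cytokine signalling genes.

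Nearly all respiratory chain genes were higher, by small amounts and together with other short genes. All 36 tested subunit genes of complex I rose (median log2 0.32), as did all 14 of complexes II and III (0.37), all 11 of cytochrome c oxidase (0.27) and 14 of 15 of ATP synthase (0.30). Other protein-coding genes of the same lengths had medians of 0.26, 0.26, 0.29 and 0.24, with 71.0%, 70.4%, 80.5% and 66.9% of them higher. With the length trend removed, 29 of 36, 11 of 14, 9 of 11 and 11 of 15 were higher, with medians of 0.16, 0.245, 0.10 and 0.16. Ndufb9, a complex I subunit, stood at 109, 118 and 109 CPM with PBS and at 187, 180 and 183 CPM with ERG-245 (log2 0.71, SE 0.031, adjusted p = 2.91e-42). Uqcrq, of complex III, rose by log2 0.64 and Cox7a2l, which helps join complexes into supercomplexes, by 0.54. Of 78 mitochondrial ribosomal genes 68 rose and 1, Mrps2, fell (log2 -0.26). Their median was 0.29, against 0.16 for other genes of that length, and 49 rose and 6 fell with the trend removed. Of 78 cytosolic ribosomal genes 74 rose and 0 fell (median 0.29, against 0.28 for other genes of that length), and 55 rose and 11 fell with the trend removed. Proteasome subunits rose in 35 of 37 with 0 lower (median 0.33, against 0.23 at that length), and in 28 with 1 lower after removal of the trend. Psmb4 went from 189 to 289 CPM (log2 0.61).

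Of the mitochondrial genome only ribosomal RNAs and tRNAs were counted, so its protein-coding genes are not covered. The RNAs that were counted moved unequally. The ribosomal RNA mt-Rnr1 did not pass the test (log2 0.00) and mt-Rnr2 rose by log2 0.42. The leucine tRNA TrnL1 had 336, 288 and 250 counts with PBS and 1091, 1098 and 1107 counts with ERG-245 (log2 2.03), and TrnW, for tryptophan, rose by log2 3.74 from 9 to 21 counts per PBS library. TrnM (log2 0.89) and TrnT (log2 3.40), both of low counts, rose too, and TrnI (log2 -0.09) did not pass. The kit selects RNA with a poly(A) tail, which mature tRNAs lack.

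Most genes of antioxidant defence were higher. NRF2, a transcription factor freed by oxidants, drives glutathione synthesis, quinone reduction and thioredoxin recycling. Of 37 genes 30 rose and 4 fell (median log2 0.33, against 0.13 for other genes of that length), 6 rose at least 2-fold, and 26 rose and 6 fell with the trend removed. Nqo1, a quinone reductase, stood at 13.85, 16.3 and 15.6 CPM with PBS and at 65.95, 64.8 and 71.97 CPM with ERG-245 (log2 2.15, SE 0.064, adjusted p = 8.43e-55). Its highest level among the leukemias without the inhibitor was in KO7 (19.8 CPM on average). Srxn1, which restores peroxiredoxins, stood at 9.32, 8.51 and 9.58 CPM and at 39.25, 40.03 and 40.7 CPM (log2 2.13). Gsta4, a glutathione transferase for lipid aldehydes and the gene of the list that rose most, stood at 4.66, 3.09 and 3.92 CPM and at 21.9, 25.02 and 22.96 CPM (log2 2.58). Srxn1 and Gsta4 were named after their values were seen. Gpx4, which reduces lipid peroxides, rose from 241 to 445 CPM (log2 0.89). Heme-related members moved as well: Blvrb, biliverdin reductase B, rose from 286 to 556 CPM (log2 0.96) and Ftl1, ferritin light chain, from 958 to 1621 CPM (log2 0.76). Blvrb is abundant in erythroid cells, whose markers went from 4.36% to 5.06% of counts, and its level was 97.7 CPM in WT6 and 103 CPM in KO3, where erythroid markers made up 1.35% and 1.25%. The part of erythroid RNA in these rises was not tested. The regulator Nfe2l2 (log2 -0.02) did not pass, nor did Hmox1 (log2 0.05).

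The antioxidant response element TGACNNNGC stood in the 250 bases before the start of 7 of 31 NRF2 list genes (22.6%), and of 11.5% of all 27025 genes. Nqo1, Srxn1 and Gsta4 were not among the 7 list genes. Of the 7, 6 rose and 0 fell, beside 30 and 4 of all 37 genes of the list. The stretches of the 2 with the largest rise, chosen as above, lie on the plus strand at chr3:107895772-107895853 (Gstm5) and chr3:122245383-122245471 (Gclm).
Gstm5: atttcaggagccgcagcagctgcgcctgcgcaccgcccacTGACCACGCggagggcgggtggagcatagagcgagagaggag
Gclm: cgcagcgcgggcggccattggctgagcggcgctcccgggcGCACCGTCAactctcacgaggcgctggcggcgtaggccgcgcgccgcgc
Gclm, the modifier subunit of the enzyme that starts glutathione synthesis, stood at 132, 136.5 and 138 CPM with PBS and at 236, 226 and 237 CPM with ERG-245 (log2 0.78). Gstm5, a glutathione transferase, rose from 34.1 to 70.9 CPM (log2 1.06).

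Histone acetylation genes and dioxygenases that use 2-oxoglutarate were more often lower than higher. Of 38 histone acetylation writers, readers and erasers, 29 fell and 2 rose (median log2 -0.16, against -0.05 for other genes of that length), and 24 fell and 3 rose with the length trend removed. Hdac7, a deacetylase of thymocytes, fell from 496 to 343 CPM (log2 -0.53) and Kat6a, an acetyltransferase, from 175 to 125 CPM (log2 -0.49). Hat1, which acetylates newly made histones, rose by log2 0.53. Of 40 dioxygenases that use 2-oxoglutarate, 18 fell and 8 rose (median log2 -0.08, against -0.07 for other genes of that length). With the trend removed 14 fell and 14 rose, with a median of 0.035, so their median kept no direction.

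NOTCH genes and the early T cell program were lower. Of 25 receptors, cofactors and direct targets of NOTCH, 18 fell and 4 rose (median log2 -0.39, against -0.025 for other genes of that length), and 17 fell and 5 rose with the length trend removed. Notch1 fell from 1316 to 823 CPM (log2 -0.68), with no overlap between groups and below all 12 other libraries; counts of the retroviral copy cannot be told apart from those of the gene. Heyl, a transcription factor switched on by NOTCH, stood at 199, 196 and 199 CPM with PBS and at 94.5, 88.8 and 94.5 CPM with ERG-245 (log2 -1.09, SE 0.030, adjusted p = 2.07e-60). Il2ra, the alpha chain of the IL-2 receptor, fell from 498 to 235 CPM (log2 -1.08). Il7r, the receptor of the survival factor IL-7, stood at 81.4, 82.4 and 76.3 CPM and at 21.8, 24.4 and 23.3 CPM (log2 -1.79). Hey1, named after its value was seen, went the other way from 0.415 to 1.58 CPM (log2 1.91).

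Of 28 T-lineage transcription factors 18 fell and 5 rose (median log2 -0.21, against -0.09 for other genes of that length, of which 48.9% were lower), and 14 fell and 7 rose with the length trend removed. Gata3, which commits progenitors to the T lineage, stood at 111, 108 and 106 CPM with PBS and at 44.8, 45.2 and 45.3 CPM with ERG-245 (log2 -1.27, SE 0.041, adjusted p = 9.6e-54). Tcf7, the T cell factor TCF-1, fell from 1472 to 955 CPM (log2 -0.62). Among 26 T cell surface and signalling genes 15 fell and 9 rose (median log2 -0.21, against 0.06 for other genes of that length). All 3 CD3 chains fell, with Cd3e at 538, 530 and 535 CPM and at 211, 215 and 207 CPM (log2 -1.34), Cd3g at log2 -0.76 and Cd3d at log2 -0.61. Cd8a, the alpha chain of the CD8 coreceptor, rose from 164 to 345 CPM (log2 1.07) and was higher still in WT6 (870 CPM) and KO7 (812 CPM). Of 11 V(D)J recombination genes 8 fell and 2 rose (median log2 -0.30, against 0.005 for other genes of that length, 35.8% of them lower). Rag2, which with RAG1 cuts receptor segments, stood at 37.7, 35.5 and 38.1 CPM and at 11.9, 11.2 and 12.5 CPM (log2 -1.64), Rag1 fell by 0.68 and Ptcra, the surrogate alpha chain, by 0.86 on the log2 scale. Rag2 was below all 12 other libraries.

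Among cytokine signalling genes the largest rise was that of Cish. This gene, a feedback inhibitor of cytokine receptors induced by STAT5, stood at 23.5, 23.6 and 22.3 CPM with PBS and at 192, 195 and 194 CPM with ERG-245 (log2 3.06, SE 0.043, adjusted p = 1.48e-90). The next highest group was KO7 at 45.4 CPM. Of 32 cytokine and growth factor genes 15 rose and 13 fell (median log2 0.06). Of other genes of that length 29.9% were higher and 43.4% lower (median -0.05). Igf1r, the IGF-1 receptor, fell from 256 to 144.5 CPM (log2 -0.82). Of 22 immediate early genes 12 fell and 5 rose (median log2 -0.32, against 0.05 for other genes of that length, 29.9% of them lower). Jun stood at 33.9, 37.4 and 31.7 CPM and at 14.5, 14.6 and 12.4 CPM (log2 -1.32), and Nr4a1, a marker of receptor signalling, fell from 47.25 to 21.5 CPM (log2 -1.13). Fos (log2 -0.40) and Egr1 (log2 -0.04) did not pass. Pmaip1, which encodes the death protein NOXA, fell from 32.8 to 10.6 CPM (log2 -1.63), while Bcl2l11, which encodes BIM, rose by log2 0.58 and Bcl2l1, which encodes BCL-XL, by log2 0.50. Bcl2l1 is also abundant in erythroid cells and stood at 89.75 CPM in WT6, 228.8 CPM in KO7 and 69.07 CPM in KO3, where erythroid markers made up 1.35%, 6.11% and 1.25% of counts. Among 35 DNA replication genes 24 rose and 6 fell (median log2 0.13, against 0.07 for other genes of that length, 44.3% of them higher). Among 29 mitotic genes 15 fell and 7 rose (median -0.08, against 0.03 for other genes of that length, 32.8% of them lower). Mthfd1l and Mthfd2, mitochondrial folate enzymes, rose by log2 0.68 and 0.59.

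Most interferon-stimulated genes and GTPases were higher, while another interferon family was divided. Of 38 interferon-stimulated genes 25 rose and 7 fell (median log2 0.32, against 0.00 for other genes of that length, 36.4% of them higher). Of 21 interferon-inducible GTPases 16 rose and 0 fell (median 0.60, against -0.01 for other genes of that length, 35.2% of them higher). With the length trend removed, 25 rose and 3 fell of the former, and 16 rose and 0 fell of the latter. Ifit1, which binds foreign RNA, stood at 13.05, 12.8 and 11.4 CPM with PBS and at 54.5, 53.5 and 55.3 CPM with ERG-245 (log2 2.13, SE 0.065, adjusted p = 2.45e-56). Ifi35 went from 31.1 to 101 CPM (log2 1.69) and Iigp1, a GTPase that attacks parasite vacuoles, from 15.0 to 36.7 CPM (log2 1.302). Rsad2, the antiviral enzyme viperin, rose by log2 0.57. Ifit3 (log2 0.02) and Mx1 (log2 -0.03) did not pass. Of 11 genes of the interferon-inducible p200 family, 5 rose and 5 fell (median log2 0.21). Of 18 MHC class I presentation genes 11 rose and 1, H2-T22, fell (median log2 0.18, against 0.125 for other genes of that length, of which 51.6% were higher). With the length trend removed 9 rose and 3 fell, with a median of 0.096. H2-D1 went from 375 to 567 CPM (log2 0.60).

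The oligoadenylate synthetases, which make the 2-5A signal that activates RNase L, moved unequally. Of the 12 family members 9 were tested, 5 rose and 0 fell. Oas1e (gene ID 231699, chromosome 5, 120786312 to 120795530) stood at 1.11, 0.882 and 0.577 CPM with PBS and at 63.6, 65.2 and 63.8 CPM with ERG-245 (log2 6.18, SE 0.12, adjusted p = 1.36e-77). It stood at 0.492 CPM in WT6, 1.03 CPM in KO7 and 0.420 CPM in KO3. Its neighbour Oas1c rose by log2 0.98, and Oasl2 by 1.18, Oasl1 by 0.85 and Oas3 by 0.53. Oas1a (13.8 and 15.0 CPM), Oas1b (23.04 and 21.8 CPM), Oas2 (12.8 and 12.2 CPM) and Oas1g (0.920 and 0.929 CPM) did not pass the test. Of 50-base windows of Oas1e 89.3% occur in no other gene. Oas1d, Oas1f and Oas1h had at most 1 count in any of the 6 libraries and were not tested.

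The interferon-stimulated response element (GAAA, then any 2 bases, then GAAA again), searched in the same way, stood before the start of 12 of 30 interferon-stimulated genes (40%) and of 3.46% of all 27025 genes. Of these 12 genes 7 rose and 1 fell, beside 25 and 7 of all 38 genes of the list. The 2 with the largest rise, chosen as above, lie at chr19:34640745-34640853 on the plus strand (Ifit1) and chr14:59341331-59341420 on the minus strand (Phf11b), and Ifit1 holds it 2 times in reverse.
Ifit1: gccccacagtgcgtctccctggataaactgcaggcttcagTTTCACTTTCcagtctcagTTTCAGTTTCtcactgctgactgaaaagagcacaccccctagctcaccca
Phf11b: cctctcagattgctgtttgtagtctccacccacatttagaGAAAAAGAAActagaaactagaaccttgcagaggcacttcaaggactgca

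**Figure D4:**
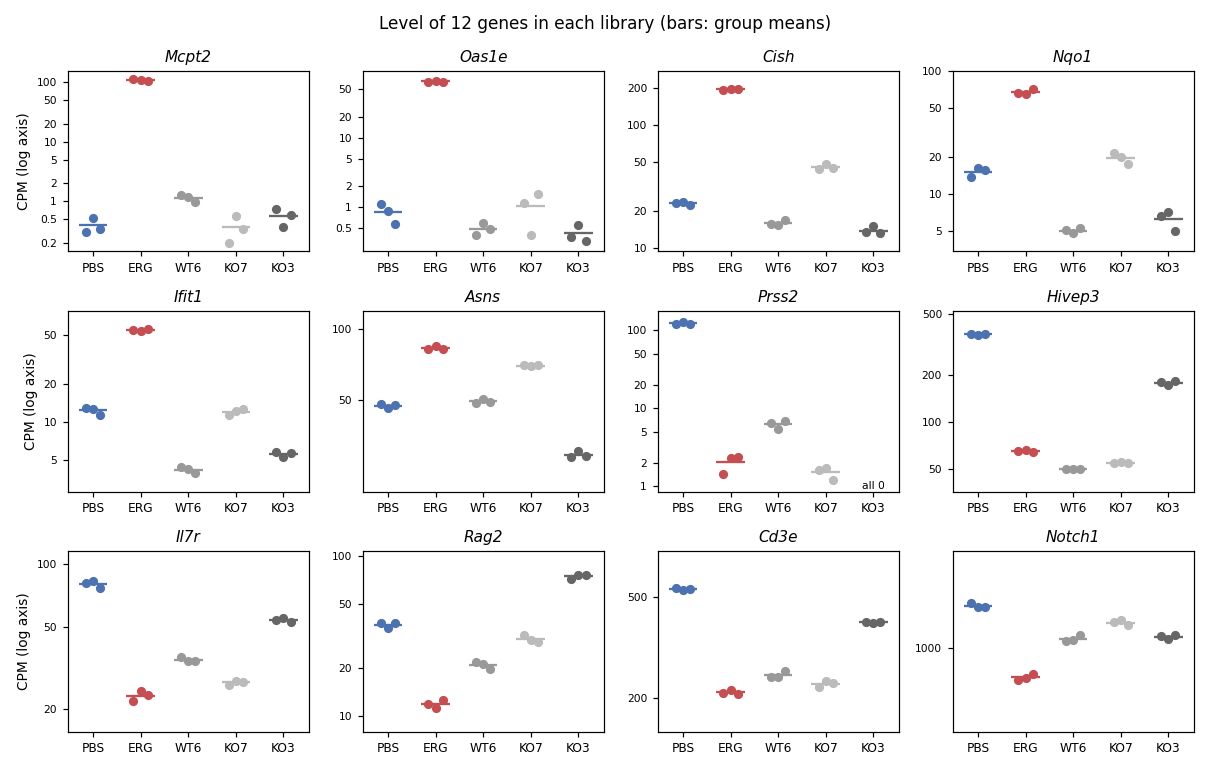
Level in CPM (log axis) of 12 genes in all 15 libraries, points are libraries and bars group means. Mcpt2, Oas1e, Cish, Nqo1 and Ifit1 stand higher with ERG-245 than in every other library, while Prss2 and Hivep3 are high with PBS and low with ERG-245; the 3 KO3 libraries have 0 counts of Prss2.

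Most genes with the largest folds were low in one of the groups, where the 24 named by fold averaged from 0.395 CPM (Mcpt2) to 3.45 CPM (Ankrd36), Cish apart (23.1 CPM). Mcpt2 (gene ID 17225, chromosome 14, 56021584 to 56044635), a mast cell protease, stood at 0.311, 0.529 and 0.346 CPM with PBS and at 112, 110 and 104 CPM with ERG-245 (log2 8.06, SE 0.11, adjusted p = 2.75e-91). None of the other leukemias reached 2 CPM of it. Its neighbour Mcpt4 rose from 0.805 to 14.6 CPM (log2 4.18) and Gzmb, farther along the same locus, from 0.482 to 4.43 CPM (log2 3.19). Gzmd had 0 counts with PBS and 28 with ERG-245, at least 10.1-fold higher against the floor of 3 counts over the PBS group. Mcpt8, of basophils, fell (0.673 to 0.190 CPM) and Ctsg (0.307 and 0.243 CPM) did not pass. Of the mast cell markers outside this locus, Cpa3 stood at 1.00 and 1.61 CPM and Kit at 17.8 and 30.0 CPM, and Fcer1a (0.307 and 0.485 CPM), Ms4a2 (0.211 and 0.467 CPM) and Hdc (0.777 and 0.639 CPM) did not pass. The part of mast cells in the rise of Mcpt2 was not tested.

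Prdm16, a transcription factor of stem cells, rose from 0.687 to 11.1 CPM (log2 4.04), Cda, cytidine deaminase, from 1.14 to 12.2 CPM (log2 3.42) and Homer2, a synaptic scaffold, from 2.215 to 24.1 CPM (log2 3.47). Ankrd36 (log2 3.56), the GDP dissociation inhibitor gene Arhgdig (3.54) and Mir142, a microRNA gene of blood cells (4.21), rose too. Ccl8, a monocyte chemokine, rose from 1.98 to 25.55 CPM but stood at 130 CPM in WT6 and 81.7 CPM in KO3, and the matrix protease Mmp3 rose from 3.275 to 31.8 CPM. In the other direction Prss2 (gene ID 22072, chromosome 6), a trypsinogen gene inside the T cell receptor beta locus, stood at 121, 127 and 122 CPM with PBS and at 1.43, 2.29 and 2.38 CPM with ERG-245 (log2 -5.91, SE 0.083, adjusted p = 9.6e-90). Its level in the 3 other leukemias was 6.27 (WT6), 1.502 (KO7) and 0 CPM (KO3). The 10 other listed genes of that stretch in the table were below the filter. Gjc1, a gap junction protein, fell from 38.7 to 1.61 CPM (log2 -4.58), Slc9a2, a sodium-proton exchanger, from 16.5 to 0.865 CPM (log2 -4.25), and Fbp1, of gluconeogenesis, from 38.3 to 2.44 CPM (log2 -3.97). Tmem132b fell by 3.83 on the log2 scale. Hivep3, a zinc finger gene among the 8 with the largest loss in CPM, went from 372, 362 and 368 CPM to 64.8, 65.8 and 64.0 CPM (log2 -2.50). It was near the ERG-245 level in WT6 (49.98 CPM) and KO7 (54.8 CPM), and stood at 180 CPM in KO3. Of the 24 genes, Mcpt2 with Mcpt4, Ppbp with Pf4 and S100a8 with S100a9 are neighbours in the genome.

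Markers of other spleen cells differed too, and some of the largest folds are theirs. All 12 platelet markers fell, and their sum went from 0.0223% to 0.0230% of counts with PBS to 0.00516% to 0.00558% with ERG-245. Ppbp, a platelet chemokine, stood at 54.7, 54.7 and 57.8 CPM and at 1.11, 1.67 and 1.72 CPM (log2 -5.20). Of 14 neutrophil markers 10 fell and 0 rose (0.00829% to 0.00841% against 0.00141% to 0.00146%). S100a8, a subunit of calprotectin, fell from 19.6 to 0.903 CPM (log2 -4.44), and Lcn2 (4.13 and 4.05 CPM) did not pass. Of 15 B cell markers 13 fell and 2 rose, and Ighm, one of the 2, went from 698.5 to 1376 CPM. The sum of the B cell markers, Ighm included, went the other way from the count, from 0.0834% to 0.135% of counts on average. Of 12 plasma cell markers 10 rose and 2 fell (0.117% against 0.382% of counts on average), with Ighg1 up from 191.5 to 1310 CPM (log2 2.775) and Sdc1 (83.6 and 78.1 CPM) slightly lower, a call lost without PBS library 1 (-0.088) or ERG-245 library 1 (-0.081) or 2 (-0.085). Derl3 and Xbp1 belong to the unfolded protein response list, are abundant in plasma cells, and rose by log2 1.45 and 0.74. Of that list 20 of 27 rose and 4 fell, and 20 rose and 3 fell with the length trend removed. Of 21 erythroid markers 16 rose and 1 fell, with Rhag up by log2 0.71 while Hba-a1 and Hba-a2 did not pass. Of 19 macrophage markers 12 were higher and 2 lower (C1qa log2 0.88, Marco log2 -1.62). Of 17 stromal and endothelial markers 13 were higher and 1, Pdgfrb, lower (log2 -1.07). Of 13 markers of dendritic cells 7 were lower and 4 higher, with H2-Aa at log2 -1.07. NK and cytotoxic markers rose in 4 of 11 and fell in 2, while their sum fell from 0.0399% to 0.0325% of counts on average. Mast cell markers rose in 7 of 12 and fell in 1. Among other genes of the same lengths, 53.5% were higher for the mast cell list, 56.5% for NK and 48.9% for macrophage markers. The shares were 42.2% for erythroid, 33.4% for stromal and 63.8% for plasma cell markers. By count of higher genes alone, the mast cell and NK lists thus do not stand out from other genes of their length. None of the markers on these lists was at 0 in all 6 libraries. The part of these cells in the results above was not tested.

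**Figure D5:**
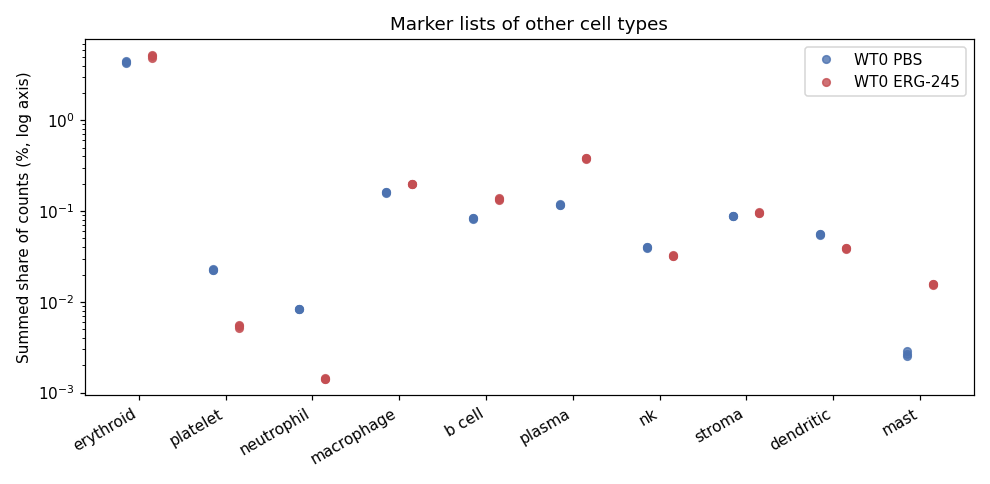
Summed share of counts (%, log axis) of the marker lists of 10 other cell types in the 6 WT0 libraries. Platelet and neutrophil markers are lower and plasma and mast cell markers higher with ERG-245, the mast cell sum mostly through Mcpt2 and Mcpt4, and libraries of a group lie close together.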

How the data were processed

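RNA-seq of 15 libraries was used as a table of raw counts per gene that the authors deposited. Per the file headers, featureCounts 2.0.1 counted read pairs with both ends mapped against a modified RefSeq GTF (GRCm38.p6), exons summed by gene, with a minimum overlap of 25 bases and strand setting 2. The submitters' processing notes also list mm10, DESeq2, Subread, STAR and Trim Galore, and settings of these are not given in the sources used here. The deposited exon length per gene, the table's other unit, was used for length bins. Of the genes, 39827 were read and 3 with broken lines (9 lines) were left out, and 0 value columns belonged to no sample.

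Genes were kept by filterByExpr of edgeR 4.0.16 (R 4.3.3, limma 3.58.1), scaled by TMM, and tested with a robust quasi-likelihood fit of all 15 libraries (5 groups, 10 residual degrees of freedom). P-values were Benjamini-Hochberg adjusted over 15948 genes. Levels are TMM-scaled CPM, with mean ± SD where given, and fold changes are log2 values of ERG-245 minus PBS. The code was tested on simulated data. Alternatives were RLE scaling, library totals, TMM without erythroid and receptor genes, no filter, DESeq2 1.42.0, the 6 libraries alone, a replicate block, and each library left out; removal of a lowess trend on exon length was added after the data were seen. Pairs of libraries of a group differed by more than sampling noise (chi-square per gene 1.575 to 2.117), so no library is an exact copy of another and each was used as 1 of n = 3; this does not show that they are separate samples. Floors of 3 counts cover counting error only.

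The members of the comparison and the 53 gene lists, which overlap in places, were chosen with earlier results of these data known. Lists are described by counts and medians with no set test. Named genes are the genes at the entry of branched-chain breakdown, up to 4 per list by smallest p and members that passed against a list's leading direction (where 3 or fewer), the 12 per direction with the largest fold (mean of at least 5 CPM, groups without overlap, no gene models, receptor or sex-linked genes), the 8 per direction with the largest CPM difference, all oligoadenylate synthetase, granzyme locus and trypsinogen genes, V segments of at least 5%, and markers of described cell types; some genes that this rule names are not reported here. Genes outside the rule were chosen after their values were seen: Atf4, Nfe2l2, Hmox1, Srxn1, Gsta4, Slc7a11, Gclm, Gstm5, Phf11b, Hey1, Chac1, Trib3, Pycr1, Vldlr, Cth, Nupr1, Atf3, Slc38a9, Slc38a10, Ifit3, Mx1, Fos, Egr1, the mitochondrial RNAs, and the receptor constant and joining genes. Lists without a paragraph of their own gave, as higher and lower of tested: TCA cycle and glutamate 21 and 6 of 35, glycolysis 8 and 9 of 22, hypoxia 5 and 5 of 15, lipid synthesis 10 and 9 of 30, nucleotides and folate 20 and 9 of 33, p53 10 and 11 of 28, MYC and ribosome biogenesis 14 and 9 of 33, heat shock 10 and 9 of 22, T-ALL transcription factors 7 and 3 of 13, BCL2 family 11 and 4 of 19 and homing 7 and 8 of 19.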

Additional observations from a re-analysis of the deposited data

How the results depend on the processing

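The numbers of genes higher, lower, and higher or lower by at least 2-fold stayed within 1.5 times under all alternatives run. Leaving out 1 library at a time gave 4949 to 5036 higher and 4878 to 4975 lower genes, and 908 to 940 and 956 to 982 at 2-fold. DESeq2 called 5025 higher and 4795 lower, library totals alone 4340 and 6108, and no filter 4870 and 5570. Replicate numbers did not pair the libraries (correlations of same-numbered deviations -0.017, -0.012 and -0.036), and a replicate block on the 6 libraries called 5147 and 5104, against 5199 and 5165 on the same libraries without it. Removing the length trend called 5367 and 4704, and 77 called genes turned direction. Signs turned for these named genes: Vars (0.096), Oas2 (0.026) and Oas1g (-0.022), without the length trend; Oas1g (-0.016) and Dbt (-0.049) with library totals; Dbt (-0.007) without a filter; Oas1g (-0.0) with the block; and, leaving out a library, Oas1g (-0.34 to 0.271, and -0.175 without PBS library 1), Oas2 (-0.146 to 0.041), Dbt (-0.004 without ERG-245 library 2) and Trav21-dv12 (-0.817 to 0.208). Of these, Vars passed the test as reported. The cause was not tested. Hbb-bs lost its call without the length trend. The call of Bckdha (log2 0.14) was lost without PBS library 1 (0.117) or ERG-245 library 3 (0.119).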

Other observations

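Several abundant or steeply changed genes outside the lists were chosen after their values were seen. The metallothioneins, which bind zinc and copper, rose together: Mt1 from 24.7 to 91.0 CPM and Mt2 from 26.7 to 132.7 CPM. Erfe, the erythroid hormone that lowers hepcidin, rose from 31.2 to 180.9 CPM, Fabp5, a fatty acid carrier, from 57.4 to 204.2 CPM, Slpi, a protease inhibitor, from 42.8 to 201.8 CPM, and Ctsf, a lysosomal protease, from 31.25 to 196 CPM. Lower were Mpzl2, an adhesion protein (248.9 to 44.3 CPM), Sh3pxd2a, a scaffold of invasive membranes (318.1 to 71.4 CPM), and Mcub, which restrains mitochondrial calcium uptake (60.75 to 11.3 CPM).

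Of 155 tested small nucleolar RNA genes 83 were lower and 3 higher (median log2 -0.571). Their share of counts was 0.0412% to 0.0419% with PBS, 0.0283% to 0.0287% with ERG-245, and 0.0252% to 0.0329% in the 9 other libraries. Of 228 tested V segments of all receptors and immunoglobulins 165 were higher and 31 lower (median log2 1.83), together with the plasma cell markers. Summed Y-linked genes stood at 4.27 to 7.45 CPM of all counts in the 6 WT0 libraries and at 246.9 to 289.7 CPM in the 9 others.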
